A study of Mus musculus with 6 samples.

Results

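The 10 genes described here encode core proteins of the BCL2 family, which decide whether the mitochondrial outer membrane is breached in apoptosis. They were chosen by symbol: Pmaip1, Bbc3, Bcl2l11, Bmf and Bid for the BH3-only proteins NOXA, PUMA, BIM, BMF and BID; Bax and Bak1 for the effectors BAX and BAK; and Bcl2, Bcl2l1 and Mcl1 for the pro-survival proteins BCL2, BCL-XL and MCL1. All 10 were measured, by 18 of the 41174 probes on the array, and they are 10 of 29195 genes and transcripts tested, 15652 of which had a gene symbol. BH3-only proteins carry the death signal: they bind into a groove of the pro-survival proteins, and some also activate BAX and BAK directly. Active BAX and BAK form pores that release cytochrome c, after which APAF1 and caspase 9 start the caspase cascade. Blood progenitors depend on pro-survival members, MCL1 above all, and cytokine signals hold their BH3-only proteins in check, while TGF-β is known as a growth inhibitor of these cells and as an inducer of apoptosis in several cell types.

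The RNA came from the mouse line called Lhx2 cells, which resembles blood progenitors and grows because the transcription factor gene Lhx2 is forced on in it, and each sample was hybridised in 1 colour (Cy3) to an Agilent array, 6 in all. All cells were cultured with mouse stem cell factor and human interleukin 6, and before harvest the serum was replaced overnight by albumin, so both groups were serum-starved. The treated group (3 arrays) was then exposed for 2 h to TGF-β1 at 10 ng/ml, while the untreated group (3 arrays) received none, with no vehicle named. The 3 harvests are described as independent, and the untreated and treated arrays that share a replicate number form a pair. The arrays of pair 1 shared slide 1 and those of pair 2 shared slide 2. Pair 3 was split, with its untreated array on slide 1 and its treated array on slide 2. In pair 3 treatment and slide cannot be told apart.

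Signal is given as a percentage of the 75th percentile of the same array, so that 100 marks that percentile. The 75th percentile lay between 794.2 and 1031 intensity units, an array had 82.9% to 90.3% of its probes above background, and all 18 probes of the family were so on all 6 arrays. Smad7 and Skil, known feedback targets of TGF-β, had log2 changes of 3.56 (SE 0.15) and 3.46 (SE 0.13), so the arrays labelled as treated carry that response. All 12 listed progenitor markers, Kit, Cd34 and Ptprc among them, were well above background on all 6 arrays. That also held for 26990 of the 29195 genes and transcripts tested, so it does not set progenitors apart. It held for 6 of 7 lymphoid markers and for every measured marker of the other cell types listed below. The single Lhx2 probe read between 4.27% and 6.87%. Whether that probe lies in the part of the gene that the line was given was not tested. Of 53 measured markers of progenitors, granulocytes, macrophages, mast cells, erythroid cells, megakaryocytes, lymphocytes and mesenchymal cells, 0 passed the threshold in limma, without or with the replicate number as a block, where 0.253% and 0.651% of everything tested did. An unadjusted p under 0.05 was seen for 4 of the 53 without the block (5.77% of everything tested) and for 11 with it (10.9%). The summed signal of each of these 8 lists overlapped between the groups. It varied most for mesenchymal genes, from 168 to 6510 over untreated and from 194 to 6290 over treated arrays. In RNA from whole cultures, fewer cells of a kind and less RNA in each cell cannot be told apart.

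After 2 h of TGF-β1, 1 of the 5 BH3-only genes passed the test: Pmaip1 fell. Bbc3 had 2.35-fold the untreated signal at an adjusted p just over the threshold, and Bcl2l11 and Bmf were higher and Bid lower without passing. The effectors Bax and Bak1 had values of 0.930-fold and 0.979-fold, and among the pro-survival genes Bcl2l1 was higher, Bcl2 lower and Mcl1 at 1.17-fold, none of them past the threshold. In limma over all 6 arrays, with Benjamini-Hochberg adjustment over all genes and transcripts tested and a threshold of 0.05, 1 of the 10 genes passed, downwards, where 0.253% of everything tested passed in either direction and 0.0274% downwards. With the replicate number as a block 2 of 10 passed, Pmaip1 downwards and Bbc3 upwards, against 0.651% of everything tested. Treated and untreated arrays did not overlap for 7 of the 10 genes (4 higher and 3 lower), which held for 10.4% of everything tested (5.37% higher and 5.05% lower), and 8 moved the same way in all 3 pairs, against 34.2%. An unadjusted p under 0.05 was seen for 7 of 10, against 5.77%. The median size of change, regardless of sign, was 0.53 on the log2 scale over the 10 genes and 0.12 over all tested, while the median signed change was 0.10 and -0.01. The 10 genes were chosen with earlier results of these data known, so these comparisons with everything tested are a description only.

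**Figure D1:**
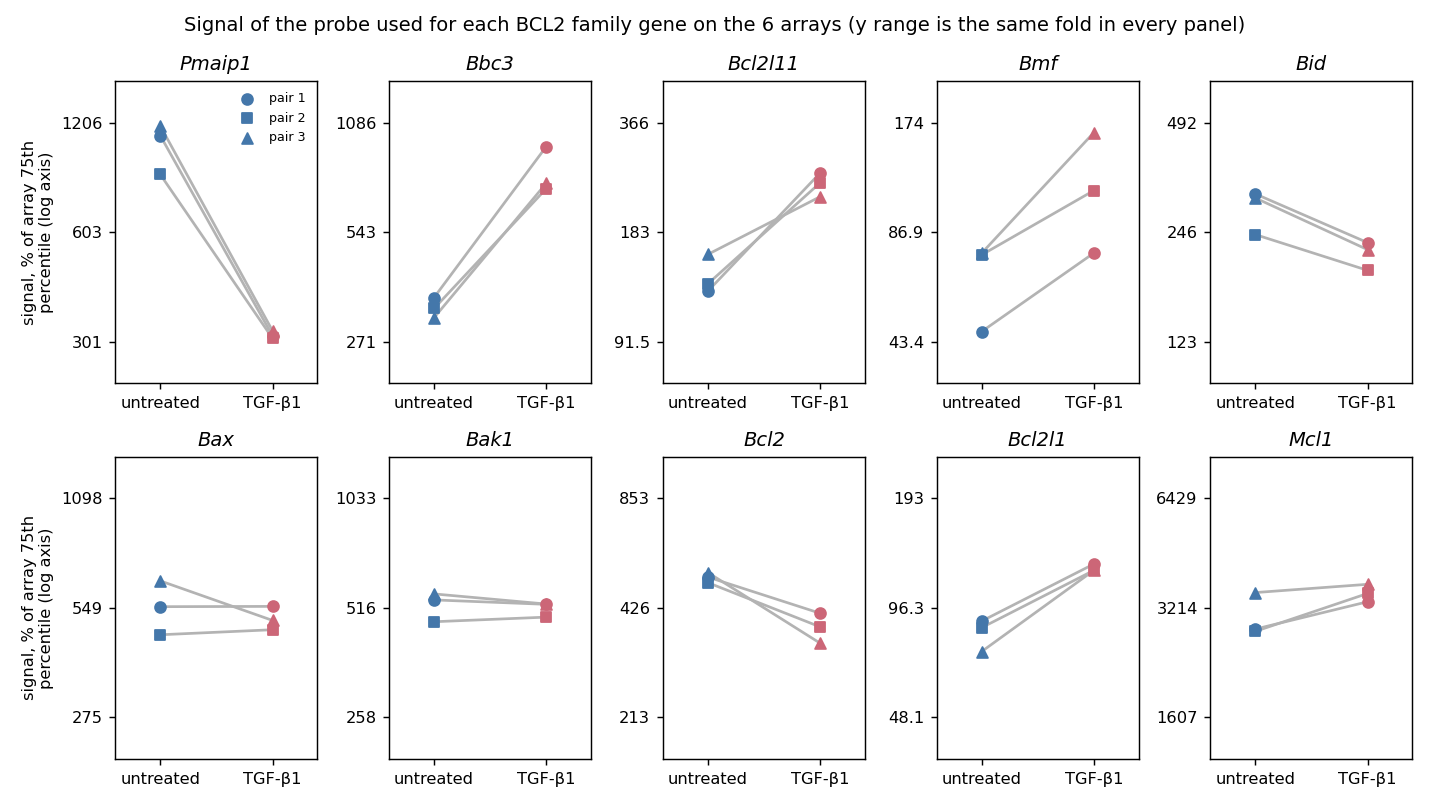
Signal of the probe used for each of the 10 genes (log axis, percent of the array's 75th percentile) on untreated (blue) and TGF-β1-treated (red) arrays, with the arrays of a pair joined by a line and marked by the same symbol. The 3 treated values of Pmaip1, 308 to 323, lie below all 3 untreated values, 868 to 1180, and the treated values of Bbc3, 715 to 933, lie above all untreated ones, 316 to 359.

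Pmaip1 encodes NOXA, a BH3-only protein that binds MCL1 selectively and hastens its degradation. Its signal was 1110, 868 and 1180 on untreated arrays 1, 2 and 3, and 313, 308 and 323 on the treated arrays of the same numbers. All treated arrays were low and almost equal (SD 0.04 on the log2 scale, against 0.24 among untreated arrays), so the spread lay in the untreated group. The pair differences were -1.83, -1.5 and -1.88, and the mean change was -1.73 (SE 0.16, 95% confidence interval -2.11 to -1.35, n = 3 per group), a 3.33-fold fall with an adjusted p of 0.0205 by limma. The change ranked 16 from the lowest of 29195 and rests on the only probe matched to the gene. The fall was -1.87 within slide 1, which held untreated arrays 1 and 3 and treated array 1, and -1.46 within slide 2, which held the others. The call was lost when untreated array 1 (adjusted p = 0.156), untreated array 3 (0.12) or treated array 1 (0.0965), 2 (0.127) or 3 (0.0973) was left out and kept without untreated array 2 (0.0304), with changes between -1.64 and -1.87, and it was also lost with normexp background correction (-1.55, adjusted p = 0.148) and with pairs 1 and 2 alone (-1.66, adjusted p = 0.0576).

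Bbc3 encodes PUMA, which can bind every pro-survival member and is known as a target of p53 and of FOXO factors. Its signal was 359, 335 and 316 on untreated arrays 1 to 3 and 933, 715 and 740 on the treated ones. The groups were far apart, and the highest treated value came from pair 1. The pair differences were 1.38, 1.09 and 1.23, with a mean of 1.23 (SE 0.16, 95% confidence interval 0.86 to 1.6), or 2.35-fold, and an adjusted p of 0.0507 by limma without the block and 0.0397 with it. The change ranked 183 from the highest and rests, as for Pmaip1, on the only probe matched to the gene. It also passed with quantile normalization (adjusted p = 0.0249), with the authors' deposited log2 values (0.0168) and when only probes well above background on all 6 arrays were tested (0.0351), whereas it did not pass with a block for the slide (1.29, adjusted p = 0.0548), with pairs 1 and 2 alone (0.0652), with no filter on dim probes (0.0744) or with normexp (0.504). With any 1 array left out it did not pass either (1.11 to 1.3, adjusted p = 0.143 to 0.256). Bbc3 was higher and Pmaip1 lower in each of the 3 pairs.

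Bcl2l11 encodes BIM, which binds all pro-survival proteins, activates BAX and BAK, and is a main mediator of death after cytokine withdrawal in blood cells. Its brighter probe read 126, 132 and 159 on untreated arrays and 266, 250 and 229 on treated arrays. The groups did not overlap, and the gap was narrowest in pair 3, which had both the highest untreated and the lowest treated value. The pair differences were 1.08, 0.92 and 0.53 (mean 0.84, SE 0.15, 95% confidence interval 0.49 to 1.2), 1.79-fold, with an adjusted p of 0.129. The second probe, which read only 5.2 to 6.95 untreated and 9.15 to 10.6 treated, gave 0.65 (SE 0.16), also without overlap. With the authors' deposited log2 values Bcl2l11 passed (0.83, adjusted p = 0.038).

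The promoter letters of Bbc3 and Bcl2l11 are shown because these are the BH3-only genes with the greatest upward changes and because TGF-β signals through SMAD and survival cytokines through FOXO factors, whose motifs can be looked for. Windows run from 250 bases before to 50 after each annotated start (RefSeq, GRCm38.p6, of which only these windows are used), and 9 of the 10 genes had at least 1, with 16 windows in all. The gene without a window was Pmaip1, so its promoter was not searched. The motifs searched on both strands were the SMAD box CAGAC, its paired form GTCTAGAC, the GC-rich SMAD motif GGCGCC, the FOXO motif GTAAACA, the E-box CACGTG and the p53 half-site consensus, and no matches in these windows overlapped. Capitals mark matches on either strand, and these 3 windows were picked after their matches were seen.
Bbc3, chr7:16310011-16310310, plus strand: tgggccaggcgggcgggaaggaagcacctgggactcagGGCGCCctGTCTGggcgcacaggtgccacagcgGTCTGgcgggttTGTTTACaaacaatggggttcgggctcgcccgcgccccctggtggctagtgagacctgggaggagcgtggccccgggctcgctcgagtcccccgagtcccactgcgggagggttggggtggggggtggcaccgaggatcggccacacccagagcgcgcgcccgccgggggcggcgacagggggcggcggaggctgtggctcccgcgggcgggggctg
Bcl2l11, chr2:128125788-128126087, plus strand: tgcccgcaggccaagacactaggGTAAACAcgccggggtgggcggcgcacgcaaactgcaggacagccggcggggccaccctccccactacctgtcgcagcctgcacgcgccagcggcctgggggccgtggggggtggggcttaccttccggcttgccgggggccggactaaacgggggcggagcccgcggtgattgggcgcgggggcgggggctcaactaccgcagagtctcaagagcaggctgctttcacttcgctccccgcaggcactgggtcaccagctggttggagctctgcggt
Bcl2l11, chr2:128127325-128127624, plus strand: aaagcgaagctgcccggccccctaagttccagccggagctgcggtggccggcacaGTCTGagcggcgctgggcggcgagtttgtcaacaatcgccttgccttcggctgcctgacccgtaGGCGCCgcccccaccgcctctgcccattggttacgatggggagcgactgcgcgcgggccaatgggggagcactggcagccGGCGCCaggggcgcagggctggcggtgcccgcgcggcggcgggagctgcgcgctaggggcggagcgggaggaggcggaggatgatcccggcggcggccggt

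The Bbc3 window holds a GC-rich SMAD motif 212 bases before the start, SMAD boxes at 204 and 179 bases before it and a FOXO motif at 167. The first Bcl2l11 window holds a FOXO motif at 227 bases before its start, and the second a SMAD box at 195 and GC-rich motifs at 131 and 51. Bbc3 and Bcl2l11, which have several windows each, were the only genes of the 9 with the FOXO motif. It was in 2 of the 16 windows and in 3.65% of all 32851 windows. The SMAD box is common, in 49.6% of all windows and in 6 of the 16 here (those of Bbc3, Bcl2l11, Bmf, Bak1 and Bcl2l1), and the GC-rich motif is in 11.9% of all windows and in 4 here (Bbc3, Bcl2l11 and Bcl2). The paired SMAD box, in 0.213% of all windows, was in 0 of the 16. The E-box, held by 7.15% of all windows, occurred in 2 of the 16 (Bbc3 and Bax), and the p53 half-site, held by 8.36%, in 2 (Bmf and Bax). These matches describe the letters and show neither binding nor a cause of the changes.

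Bmf encodes a BH3-only protein held at the cytoskeleton through a dynein light chain. Its brightest probe read 46.3, 75.2 and 76.0 untreated and 76.1, 113 and 163 treated. The groups are separated by the narrowest of margins, since untreated array 3 and treated array 1 were nearly equal, and the level followed the pair, lowest in pair 1. Every pair was higher after treatment, by 0.72, 0.59 and 1.1 (mean 0.80, SE 0.33, adjusted p = 0.849). With the replicate block the SE was 0.14 and the adjusted p 0.129 by limma, still not past the threshold. The further probes disagreed in size: the second gave 0.06 (SE 0.16), higher in 1 of 3 pairs, and the third, at 1.2 to 2.54, gave 0.40 (SE 0.26), and the mean over the 3 probes was 0.42. Within slide 1 the change of the brightest probe was 0.36 and within slide 2 it was 0.85.

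Bid encodes the BH3-only protein that caspase 8 cleaves, which links death receptors to mitochondria. It read 313, 242 and 305 untreated and 230, 193 and 220 treated. Each treated array lay below all untreated ones, by a small distance. The change was -0.41 (SE 0.16, 95% confidence interval -0.80 to -0.03, adjusted p = 0.776), with pair differences of -0.44, -0.33 and -0.47. The change was the smaller of the 2 downward values among the 5 chosen BH3-only genes. It did not pass without the replicate block or with it (adjusted p = 0.253 by limma with the block).

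**Figure D2:**
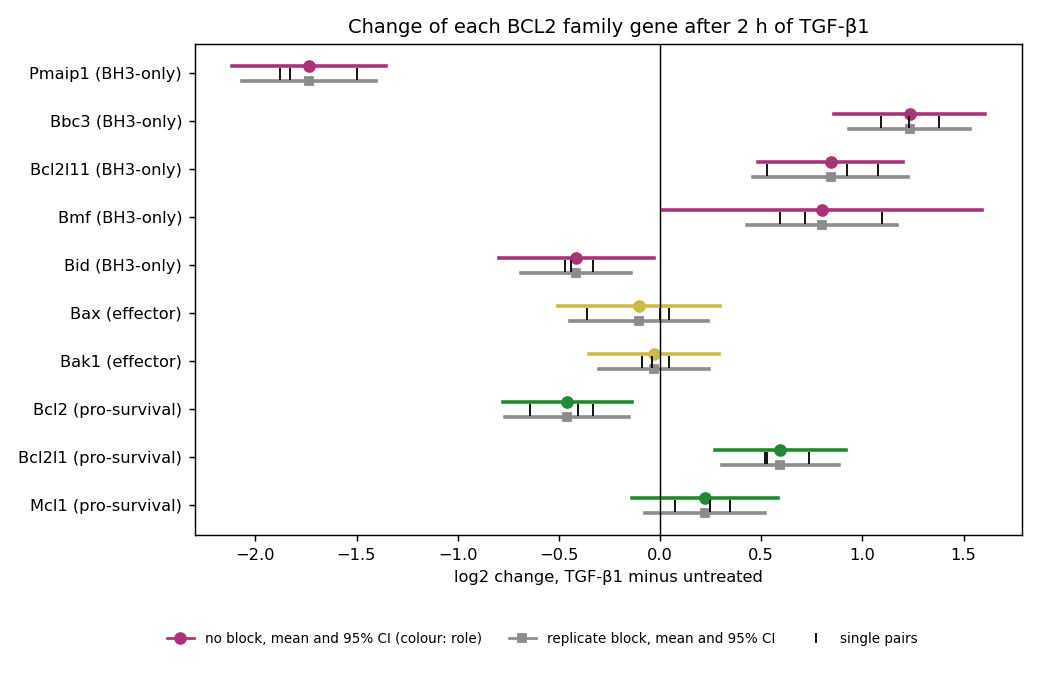
Log2 change (TGF-β1 minus untreated) of each gene, with 95% confidence intervals from the fit without a block (coloured by role) and with the replicate number as a block (grey), and the 3 pair differences as ticks. Pmaip1 at -1.73 and Bbc3 at 1.23 stand at the ends, and the intervals of Bax, Bak1 and Mcl1 include 0.

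The effector genes showed no detectable change. Bax read 553, 463 and 651 untreated and 554, 478 and 507 treated. Its pair differences were 0.00, 0.04 and -0.36, so only pair 3, which was split over the slides, was clearly lower. The mean was -0.10 (SE 0.17, adjusted p = 1) with a 95% confidence interval from 0.704-fold to 1.23-fold. Bax had -0.115 within slide 1, 0.087 within slide 2 and 0.023 with pairs 1 and 2 alone. Bak1 read 543, 473 and 564 untreated and 528, 487 and 529 treated, with a mean change of -0.03 (SE 0.14, adjusted p = 1) and an interval from 0.783-fold to 1.22-fold. The treated values of both genes fall within the untreated range. A second, dimmer Bak1 probe gave 0.13 (SE 0.29), the only further probe of the 8 in the family whose sign differed from that of the probe used. The sign of Bax and of Bak1 turned in some other settings, with values never beyond -0.23 and 0.10.

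Among the 3 pro-survival members chosen here, Bcl2l1 had the greatest change. It encodes BCL-XL, which guards later erythroid and megakaryocytic cells. Its brightest probe read 88.5, 84.9 and 73.0 untreated and 127, 122 and 122 treated, so the treated arrays were nearly equal and above all untreated ones. The pair differences were 0.52, 0.53 and 0.74 (mean 0.59, SE 0.13, 95% confidence interval 0.27 to 0.92), 1.51-fold, with an adjusted p of 0.259. The dimmer probes gave 0.27 (SE 0.19) and 0.35 (SE 0.14), higher in all 3 pairs as well, and the mean over the 3 probes was 0.40. The Bcl2l1 probes do not say which splice form was measured.

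Bcl2 encodes the founding pro-survival protein and was lower in all pairs. Its brighter probe, annotated to the RefSeq transcript NM_177410, read 518, 500 and 533 untreated and 412, 378 and 341 treated. The untreated arrays were almost equal (SD 0.05 on the log2 scale), and all treated arrays lay below them. The pair differences were -0.33, -0.40 and -0.64 (mean -0.46, SE 0.13, 95% confidence interval -0.78 to -0.14, adjusted p = 0.463), a value of 0.728-fold. The second probe, annotated to another Bcl2 transcript, NM_009741, gave -0.28 (SE 0.16) with groups that overlapped. Whether either probe reads only 1 transcript was not tested. The difference between these probes was not tested.

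Mcl1 encodes MCL1, the short-lived pro-survival protein that NOXA binds and on which blood stem and progenitor cells depend. It read 2810, 2770 and 3540 untreated and 3340, 3520 and 3730 treated, so untreated array 3 lay among the treated values. The change was 0.22 (SE 0.15, 95% confidence interval -0.14 to 0.58, adjusted p = 1), which allows from 0.908-fold to 1.5-fold. A second probe gave 0.21 (SE 0.22), higher in 2 of 3 pairs. Set beside each other, the transcript of NOXA was 0.301-fold of its untreated level and that of its partner MCL1 1.17-fold, but only the first passed the test, and the proteins were not measured.

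**Figure D3:**
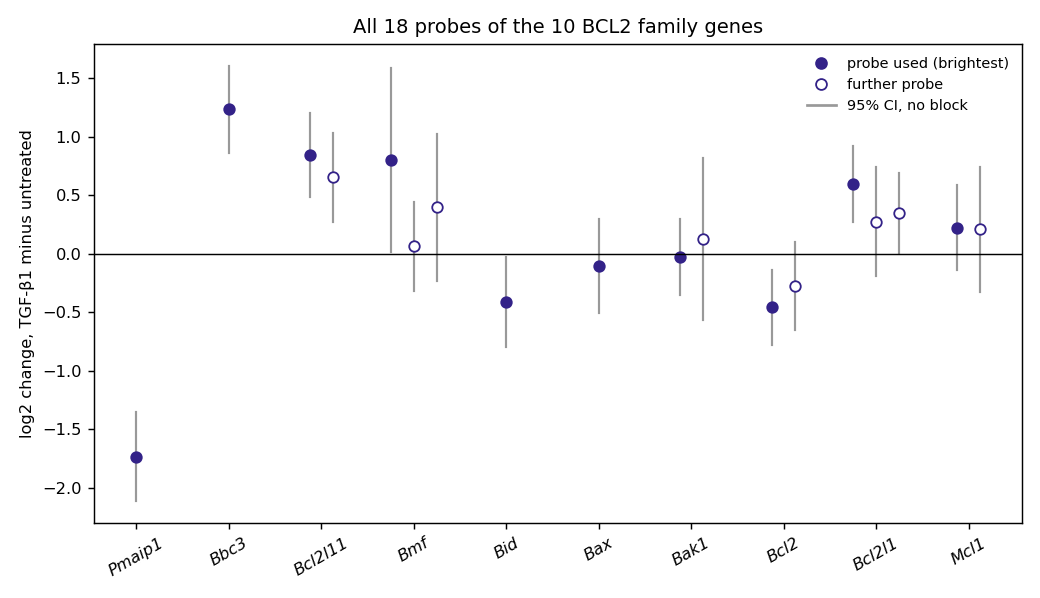
Log2 change (TGF-β1 minus untreated) with the 95% confidence interval of the fit without a block for each probe of each gene, with the probe used (brightest) filled and further probes open. Of the 8 further probes 7 share the sign of the probe used, and the Bmf and Bcl2l1 probes differ most in size.

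Around the family no gene of the further lists passed the test. Of 64 measured genes in 5 further lists (68 listed), 0 passed with limma without or with the replicate block, where 0.253% and 0.651% of everything tested did. An unadjusted p under 0.05 was seen for 4 of the 64 without the block, near the 5.77% of everything tested, and for 12 with it, against 10.9%. The lists were written with earlier results of these data known. Their median changes can be set against the median of -0.01 over all tested: -0.03 for 13 other BCL2 family genes, -0.10 for 16 caspase, apoptosome and inhibitor-of-apoptosis genes, -0.04 for 11 genes of the death receptor arm, 0.05 for 11 transcription factors known to act on BH3-only genes and -0.05 for 13 genes of MCL1 and BIM turnover.

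Among other family genes the highest value was that of Bcl2a1c (0.61, SE 0.53), a gene of the A1 group whose probe was well above background on only 3 arrays and whose near-identical copies may share its signal, and the lowest that of Bcl2l14 (-0.29, SE 0.18). Among caspases and their regulators Htra2, a mitochondrial protease released in apoptosis, had the lowest value (-0.36, SE 0.23). In the death receptor arm Cflar, which encodes the caspase 8 inhibitor FLIP, had 0.56 (SE 0.14, adjusted p = 0.346), with 0.63, 0.42 and 0.63 in the pairs. The death receptor gene Fas had -0.75 (SE 0.34, adjusted p = 0.94) and was lower in each pair, by 0.72, 0.62 and 0.90. With the replicate block the SE of Fas was 0.11 and its adjusted p 0.0959 by limma, and the adjusted p of Cflar was 0.163. Casp8, whose product cleaves BID, had -0.19 (SE 0.20).

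Of the transcription factors, Foxo1 had the highest value (0.27, SE 0.12, adjusted p = 0.902) and Myc the lowest (-0.57, SE 0.23, adjusted p = 0.794). With the replicate block the adjusted p by limma was 0.449 for Foxo1 and 0.134 for Myc (SE 0.10 for both). Foxo3, a known regulator of Bcl2l11 and Bbc3, had 0.14 (SE 0.17). Among genes that set MCL1 and BIM stability, Rps6ka1, a kinase of the ERK pathway, had 0.37 (SE 0.21) and Huwe1, a ubiquitin ligase of MCL1, had -0.17 (SE 0.19). The adjusted p was 1 for Foxo3, Rps6ka1 and Huwe1.

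**Figure D4:**
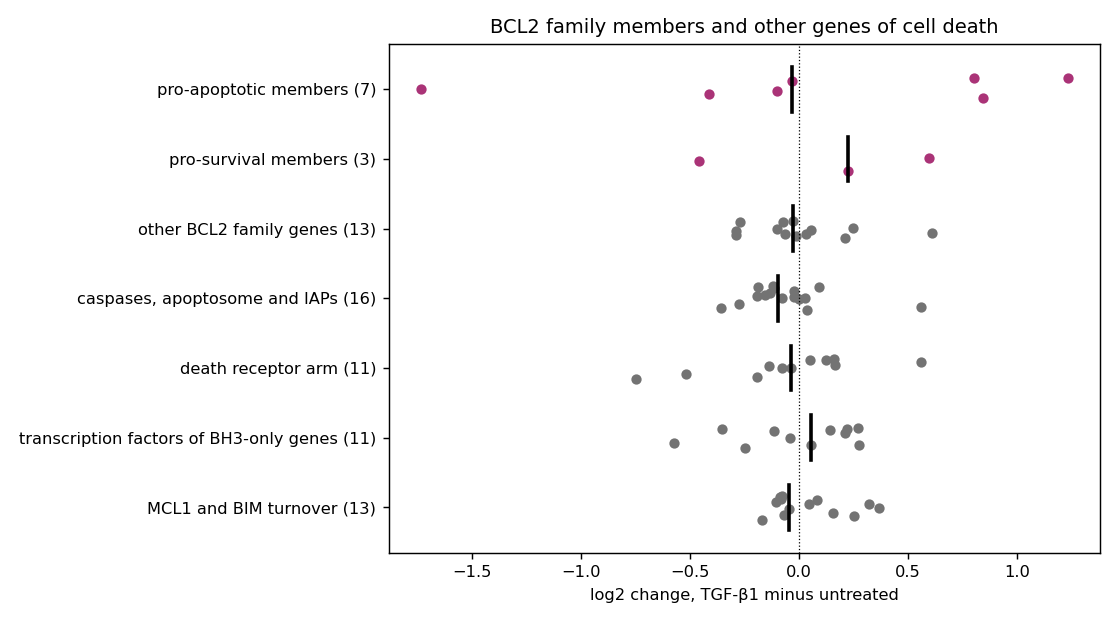
Log2 change (TGF-β1 minus untreated) of each measured gene in the family (purple, split into pro-apoptotic and pro-survival genes) and in 5 further lists of cell death genes (grey), with the number of genes in brackets and the median as a bar. Vertical scatter within a list has no meaning, and Pmaip1 at -1.73 and Bbc3 at 1.23 lie outside the range of the grey points, which run from -0.75 to 0.61.

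Genes whose signal over the 6 arrays ran most like that of Pmaip1 were Pomgnt2, a glycosyltransferase of O-mannosyl glycans (Pearson's r 0.997, change -0.62), Clec4e, a C-type lectin receptor (0.997, -0.75), and Cd28, a co-stimulatory receptor (0.996, -1.36). Those most like Bbc3 were Csnk1e, a casein kinase (0.999, change 1.35), Kcnn4, a calcium-activated potassium channel (0.998, 0.92), and Amz1, a metallopeptidase (0.997, 1.77). Of these 6 genes Cd28 (adjusted p = 0.0284) and Amz1 (0.0205) passed in limma without the block, where 0.253% of everything tested did. With the replicate block Cd28 (adjusted p = 0.0407), Amz1 (0.0311) and Csnk1e (0.0359) passed in limma, against 0.651%. The r values are the highest over all genes with a symbol, rest on 6 arrays and share the treatment step, so they are given as a description.

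**Figure D5:**
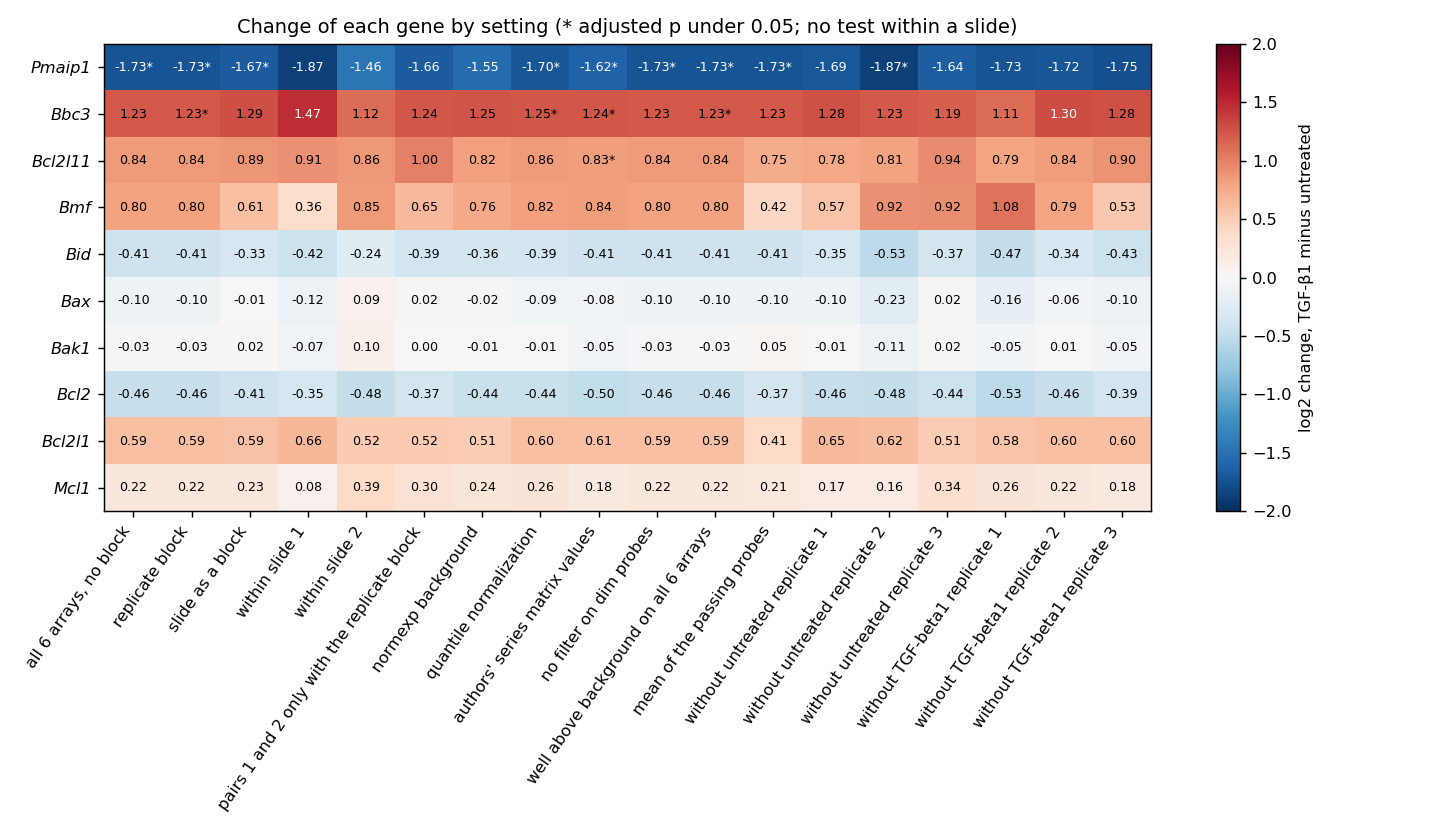
Log2 change (TGF-β1 minus untreated) of each gene (rows) in each setting (columns), with an asterisk at an adjusted p under 0.05; columns within a slide have no test. Pmaip1 ranges from -1.87 to -1.46 and Bbc3 from 1.11 to 1.47, and the signs of all genes but Bax and Bak1 are the same in every column.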

How the data were processed

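The deposited scanner files of the 6 Agilent arrays (probes annotated on mm8) give a processed signal, an intensity with background subtracted by Feature Extraction 10.1.1.1 and no scaling from array to array, per the file headers. The authors' deposited series matrix holds log2 values, made with limma per the submitters' processing notes, with steps and version not given in the sources used here. They ran with log2 of the spots' median signal (r 0.99951 to 0.99989) around medians of 7.385 to 7.421, and how they were centred is unknown.

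Each array's 75th percentile was subtracted from its log2 signals, which were then averaged over unflagged spots of a probe. Probes well above background on at least 3 arrays were kept (36386 of 41174) and named by unversioned RefSeq accession (GRCm38.p6 table, names only; 23374 probes matched). The brightest kept probe stood for a gene. The test was limma's (version 3.58.1, R 4.3.3; lmFit and eBayes) with no covariate, and p-values were adjusted by Benjamini-Hochberg across the 29195 genes and transcripts; standard errors are moderated and n is 3 per group. The fit was tested on simulated data. Same-numbered arrays deviated together (r of deviations 0.607, 0.777 and 0.545, against -0.725 to 0.071 otherwise), so the label's replicate number pairs them. Each group was centred on its own mean, so positive values for same-numbered arrays force some of the others below 0. The gap between them is partly fixed by that step. Normexp used the median spot signal, since the files carry no mean spot signal. Alternatives are in the closing section. All members were named, and from each further list every gene past the threshold and the highest and lowest others (1 such gene is not reported here), plus, chosen after their values were seen, Foxo3, Casp8, Smad7 and Skil. The members and lists were chosen with earlier results of these data known. The number of arrays limits the precision.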

Additional observations from a re-analysis of the deposited data

How the results depend on the processing

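The number of genes and transcripts past the threshold was 74 over all 6 arrays without a block. It was 190 with the replicate block and 171 with the authors' series matrix values. Quantile normalization gave 108, and probes well above background on all 6 arrays gave 104 of 27007. Pairs 1 and 2 only with the replicate block gave 55. Normexp background correction gave 5 (5 higher, 0 lower) and moved the median change of all genes to -0.16. When single arrays were left out, the number ranged from 7 to 23. Of the BCL2 family genes 1 passed. The count was 2 with the replicate block, with quantile normalization and with probes well above background on all 6 arrays, 3 with the authors' series matrix values, and 0 with normexp and with pairs 1 and 2 only with the replicate block. With single arrays left out it ranged from 0 to 1. Among other pathway genes 0 passed in each of these settings. With normexp Pmaip1 and Bbc3 had -1.55 and 1.25, which is -1.38 and 1.41 relative to that median, and relative to it Bax and Bak1 turned to 0.15 and 0.16. The replicate block changed no call in the family other than that of Bbc3. No test was made inside a slide, where a group can have 1 array. The cause of the differences between settings was not tested. Leaving out an array also leaves fewer arrays to estimate the spread.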
